A study of Mus musculus with 12 samples.

Results

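The proteasome is the large protease that degrades ubiquitin-tagged proteins, and the set described here holds 61 microarray probes of 41 mouse genes named for its parts. The members were chosen by gene name: Psma, Psmb, Psmc, Psmd, Psme, Psmf or Psmg followed by a number, leaving out Psmb8, Psmb9 and Psmb10, the interferon-inducible catalytic subunits. A probe also had to be called well above background by the scanner software on both arrays of at least 1 of 6 groups. Of 63 probes that matched by name, 61 passed, out of 27373 passing probes (18581 gene names) and 41174 probes on the array. The 2 that did not pass were 1 probe of Psmd11 and 1 probe of Psme4, both of genes with other probes in the set. Of the 61 members, 60 were well above background on all 12 arrays. The probe of Psmb2 had a spot marked as uneven on 1 array and was measured on the other 11. The rule itself used no difference between groups, but it was set with earlier results of these data known.

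The name rule is wider than the constitutive subunits. It took in 16 probes of 14 genes of the 20S core and 28 probes of 17 genes of the 19S regulatory particle. The other 17 probes are of genes that are not constitutive subunits. They are the assembly chaperones Psmd5, Psmd9 and Psmd10, the activators Psme1, Psme3, Psme4 and 2 probes named Psme2b-ps, the regulator Psmf1, the testis-specific alpha subunit Psma8, and Psmc3ip. Psmc3ip shares only its name with the family, since it encodes a partner of meiotic recombinases. Psme1 is itself interferon-inducible. Both probes named Psme2b-ps, after a pseudogene, list transcripts in the scanner files that RefSeq assigns to Psme2, the other subunit of the interferon-inducible activator, so their signal cannot be given to 1 of these genes. No probe of the array carried the name Psme2, Psmb11 or Psmg1 to Psmg4.

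The 20S core is a barrel of stacked rings. The alpha subunits form the outer rings and the gate, and the beta subunits form the inner rings, in which Psmb5, Psmb6 and Psmb7 carry the catalytic sites. The 19S particle caps the barrel. Its ring of ATPases (Psmc genes) unfolds substrates, its ubiquitin receptors and scaffold proteins (among the Psmd genes) bind them, and its lid holds the deubiquitinase Psmd14. In macrophages stimulated with interferon, Psmb8, Psmb9 and Psmb10 replace the 3 constitutive catalytic subunits, and the PA28 activator made of Psme1 and Psme2 can take the place of a 19S cap, which alters the peptides made for MHC class I.

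The samples were macrophages grown from bone marrow of 2 mouse strains, C57BL6/J (below, C57BL6) and Balb/cAnNCrl (below, Balb/c). The mice were 8 to 12 weeks old, and each sample pooled 2 males and 1 female. All cells, controls included, were grown in human recombinant CSF1, the macrophage growth factor, at 200 ng/ml. They were then left untreated for 18 h (mock) or given mouse recombinant IL-4 (interleukin-4, which drives alternative activation) at 10 ng/ml for 4 h or 18 h. Each of the 6 groups had 2 samples, from experiments with different litters, and each sample was hybridised to 1 single-colour array. No mock culture matched the 4 h treatment in duration. A level below is the log2 processed signal minus the 75th percentile of its array, and a change is a difference of such levels. P-values measure the spread between these pooled samples, not between mice. In such bulk samples, fewer cells of a type and less RNA per cell cannot be told apart.

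On the 12 arrays, 54.9% to 69.7% of 43379 spots were well above background, and no member probe had a saturated spot. All 8 macrophage markers checked were well above background on all 12 arrays. The IL-4 markers Arg1, Retnla, Mrc1 and Socs1 were called higher after 4 h and 18 h of IL-4, with 5 of 5 probes at each time over both strains. On untreated Balb/c mock replicate 1 the 2 Retnla probes read -2.96 and -3.62, against -7.4 and -7.43 on replicate 2. The same 2 arrays read -7.01 and -7.66 for Arg1, 4.33 and 4.83 for Mrc1, and 1.05 and 0.98 for Socs1. The cause of the Retnla gap was not tested. The arrays lay on 3 slides of 4. Slide 1 held Balb/c arrays only, slide 3 held C57BL6 arrays only, and slide 2 held 2 of each, so strain and slide are largely confounded. The summed level of neutrophil markers was higher in C57BL6 (8.68 to 16.7 times the arrays' 75th percentile) than in Balb/c (2.21 to 4.87), with 5 of 7 genes well above background on all arrays and each of these 5 lower on every Balb/c array than on any C57BL6 array. The summed level of stromal markers was lower in C57BL6 (0.366 to 0.606) than in Balb/c (0.874 to 1.51), but of the 3 of 4 genes above background on all arrays this held for Pdgfrb alone (levels of -4.86 to -3.75 in C57BL6 and -1.09 to 0.02 in Balb/c). The levels of Col1a2 (-2.15 to -1.66 and -1.95 to -1.48) and of the Col1a1 probe above background (-4.14 to -2.59 and -3.76 to -2.88) overlapped between the strains, and Dcn was above background on no array.

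One array stood furthest apart within the proteasome set. On Balb/c mock replicate 1, 36 of the 60 member probes measured on every array had the lowest of their 12 levels, and 5 of 60 lay above their own mean. The median deviation of the members from their means was -0.36 there, against -0.01 for all passing probes of the same array. On Balb/c mock replicate 2 the median deviation of the members was 0.00. Balb/c 4 h replicate 1 was also low, at -0.21 (-0.07 for all passing probes), with 13 of 61 above their own mean. In each Balb/c condition the members' share of the summed signal was lower on replicate 1 than on replicate 2. It was 0.589% and 0.763% in mock, 0.663% and 0.79% at 4 h, and 0.682% and 0.779% at 18 h. These replicate 1 arrays lay on slide 1, as did Balb/c mock replicate 2. The mock arrays of Balb/c differed from each other by a median of 0.34 over the members, the widest gap of the 6 groups (the others 0.11 to 0.23). Every comparison below that uses Balb/c mock rests on these 2 arrays.

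The promoters of the 4 genes on which the results turn are shown to give the sequence upstream of each gene that was called for IL-4 (Psma4, Psmd13, Psme4) or, for Psmb5, of the catalytic subunit that was lower in Balb/c. Each run is the 250 bases before the RefSeq start site in GRCm38.p6, the C57BL/6J reference, read 5' to 3' on the gene's strand. Capitals mark matches to any of 3 motifs searched on both strands: CCAAT (the box bound by NF-Y), TGANNNNGC (which includes the antioxidant-response core bound by Nfe2l1 and Nfe2l2) and the Stat6 spacing, TTC and GAA with 4 bases between them (Stat6 is the transcription factor of the IL-4 receptor). Psma4 is at chr9:54950609-54950858 (plus strand), Psmb5 at chr14:54617996-54618245 (minus strand), Psmd13 at chr7:140882144-140882393 (plus strand) and Psme4 at chr11:30771525-30771774 (plus strand).
Psma4: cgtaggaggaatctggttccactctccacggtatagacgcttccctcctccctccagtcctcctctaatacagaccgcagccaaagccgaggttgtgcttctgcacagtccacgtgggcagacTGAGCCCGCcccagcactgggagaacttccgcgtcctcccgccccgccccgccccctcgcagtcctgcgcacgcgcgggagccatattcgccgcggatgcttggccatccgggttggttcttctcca
Psmb5: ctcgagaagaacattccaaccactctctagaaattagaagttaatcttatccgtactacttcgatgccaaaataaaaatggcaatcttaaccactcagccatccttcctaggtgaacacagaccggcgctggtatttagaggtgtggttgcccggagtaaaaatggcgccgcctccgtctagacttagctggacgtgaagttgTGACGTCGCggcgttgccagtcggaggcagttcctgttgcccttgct
Psmd13: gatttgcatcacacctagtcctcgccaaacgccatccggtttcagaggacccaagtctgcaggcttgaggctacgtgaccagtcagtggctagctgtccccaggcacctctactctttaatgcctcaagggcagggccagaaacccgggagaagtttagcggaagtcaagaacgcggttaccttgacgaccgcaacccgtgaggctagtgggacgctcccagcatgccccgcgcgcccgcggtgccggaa
Psme4: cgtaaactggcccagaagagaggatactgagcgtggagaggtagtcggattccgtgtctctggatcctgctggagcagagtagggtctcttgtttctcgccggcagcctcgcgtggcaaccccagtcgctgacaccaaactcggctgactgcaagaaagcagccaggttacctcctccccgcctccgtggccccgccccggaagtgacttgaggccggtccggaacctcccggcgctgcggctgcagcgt

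Psma4 had 1 match to TGANNNNGC, starting 127 bases before the start site, and Psmb5 had 1, starting 47 bases before it. The windows of Psmd13 and Psme4 held no match to any of the 3 motifs. Promoters in the RefSeq table covered 33 of the 41 member genes with 35 start sites. CCAAT was in 37.1% of these 35 windows and in 33.8% of all 32851 windows of the same length. TGANNNNGC was in 37.1% against 35.2%, and the Stat6 spacing in 0% (0 of 35) against 5.85%. A match is a run of letters and not a binding site.

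The spread of the set's levels is given beside that of the other probes. The 6 group means of a member probe spanned a median of 0.50 log2, against 0.67 for the 21165 probes well above background on all arrays and 0.79 for all passing probes. A range above 2-fold was found in 3 of 61 members (4.92%), 1 probe of Psma4 and both of Psmc3ip, against 26.3% of the probes above background on all arrays. The median residual SD between replicates was 0.18 in the set against 0.24. The members together held 0.589% to 0.852% of the summed signal of all passing probes. The lowest share was on Balb/c mock replicate 1 and the highest on C57BL6 4 h replicate 2.

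**Figure D1:**
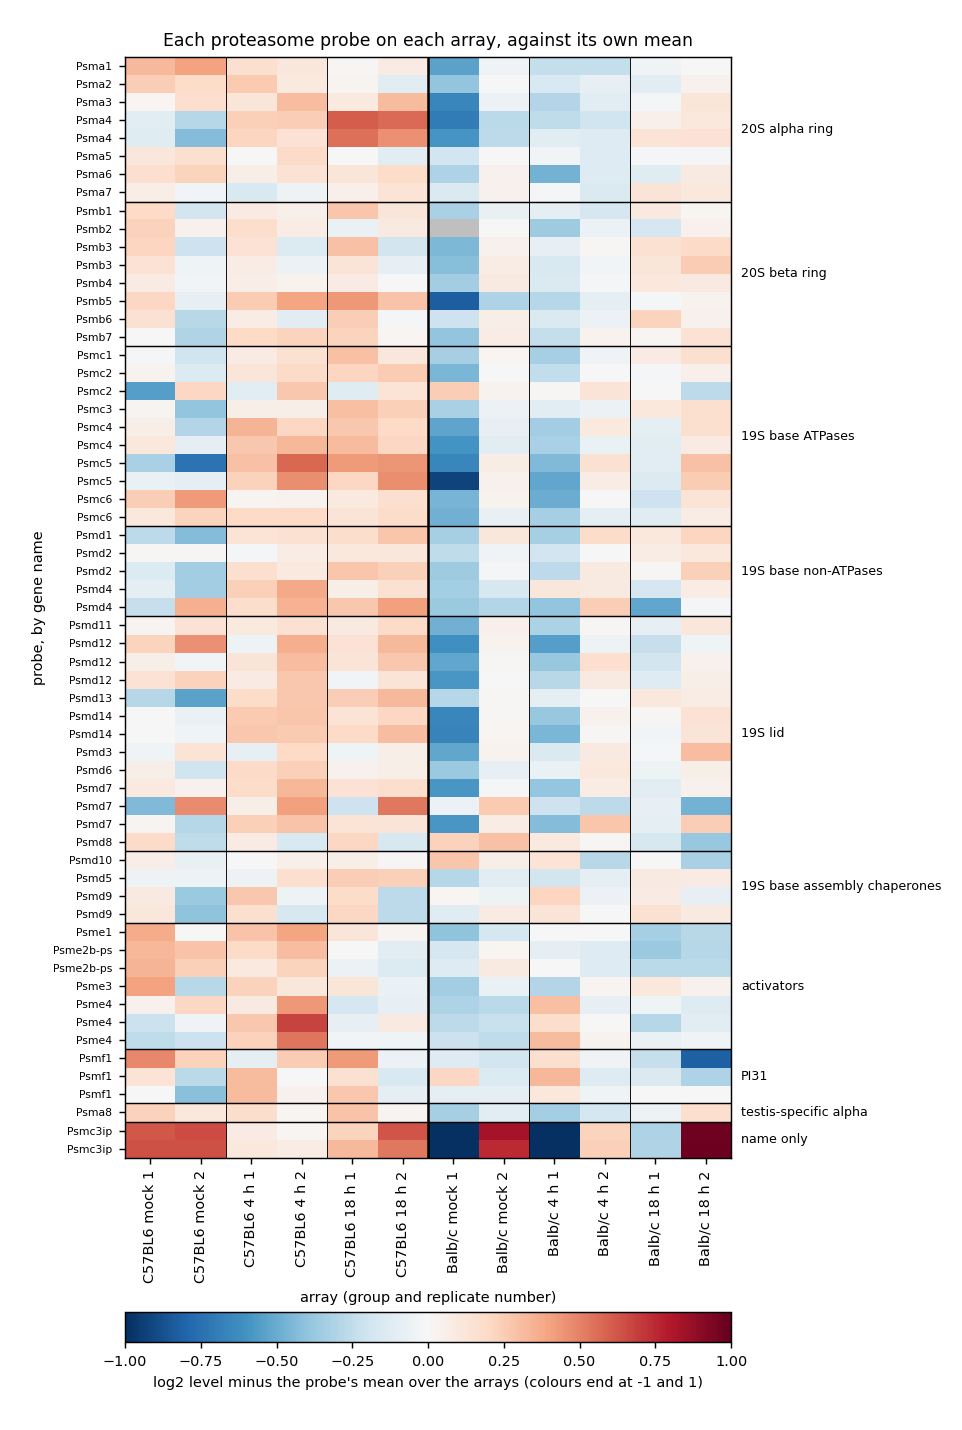
Heat map of the 61 member probes (rows, grouped by role) on the 12 arrays (columns, by group and replicate). Colour gives the log2 level minus the probe's own mean over the arrays, and grey is the 1 spot left out. The column of Balb/c mock replicate 1 is the bluest, with 5 of 60 probes above their mean, while the 4 h and 18 h arrays of C57BL6 have 44 to 54 of 61 above it.

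The alpha ring held the member with the lowest adjusted p for IL-4. Psma4 encodes an alpha subunit and was measured by 2 probes. The first, A_51_P106227, read 2.83 and 2.65 on the C57BL6 mock arrays, 3.17 and 3.18 at 4 h, and 3.54 and 3.50 at 18 h. On the Balb/c arrays it read 2.23 and 2.66 in mock, 2.68 and 2.73 at 4 h, and 2.98 and 3.04 at 18 h. In each strain both arrays at 4 h lay above both mock arrays, and both at 18 h above both at 4 h. The second probe, A_52_P81468, gave 2.5 and 2.19, then 2.84 and 2.77, then 3.17 and 3.08 in C57BL6. In Balb/c it gave 2.03 and 2.36, then 2.51 and 2.49, then 2.76 and 2.77. The order of the groups was the same as for the first probe, without overlap.

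At 18 h over both strains Psma4 rose by 0.67 ± 0.12 (log2 change ± SE, 4 arrays against 4, 1.59-fold) on either probe, with adjusted p = 0.0114 and 0.0106 (limma, Benjamini-Hochberg over all 27373 probes). Within C57BL6 the rise was 0.78 ± 0.17 (1.71-fold, adjusted p = 0.0462 and 0.0445), and within Balb/c the change was 0.56 ± 0.17 and 0.57 ± 0.17 and was not called (adjusted p = 0.151 and 0.142). The difference between the strains was -0.21 ± 0.24 for each probe (adjusted p = 0.945 and 0.946). The rise over both strains was not called without C57BL6 18 h replicate 1 (0.66 and 0.65, adjusted p = 0.0531 and 0.0528) or without the arrays of slide 2 (0.70 and 0.75, adjusted p = 0.189 and 0.151). The call within C57BL6 was lost without any 1 of 10 of the 12 arrays, other groups' arrays included.

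The other alpha subunits moved less. Psma1 read 5.13 and 5.21 in C57BL6 mock, 4.97 and 4.92 at 4 h, and 4.82 and 4.89 at 18 h, so the IL-4 arrays lay below the mock arrays. Its 18 h change there was -0.32 ± 0.18 (adjusted p = 0.415). With normexp background correction it was 0.11, where the median of all passing probes was -0.55. In Balb/c Psma1 read 4.27 and 4.76 in mock, 4.57 and 4.57 at 4 h, and 4.77 and 4.80 at 18 h, so there the 18 h arrays lay above. The strain difference of its 18 h change was 0.59 ± 0.25, the largest among subunits of the core, and was not called (adjusted p = 0.923). Psma2, Psma3, Psma5, Psma6 and Psma7 had group means within 0.22 to 0.57 of each other, and none was called in any IL-4 comparison.

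Among the constitutive beta subunits no probe was called for IL-4 in the main fit. Psmb5, which carries the chymotrypsin-like site, read 3.46 and 3.17 in C57BL6 mock, 3.51 and 3.65 at 4 h, and 3.69 and 3.54 at 18 h. In Balb/c it read 2.43 and 2.95 in mock, 2.97 and 3.16 at 4 h, and 3.24 and 3.29 at 18 h. In both strains the IL-4 arrays lay above the mock arrays, and in all 3 conditions Balb/c lay below C57BL6. Over both strains its change at 18 h was 0.44 ± 0.15 (adjusted p = 0.117). Psmb6, with the caspase-like site, changed by 0.19 ± 0.14 at 18 h (95% interval -0.13 to 0.51, adjusted p = 0.500), with means going from 5.26 in mock to 5.44 in C57BL6 and from 5.25 to 5.46 in Balb/c. Psmb7, with the trypsin-like site, changed by 0.26 ± 0.15 (-0.08 to 0.59, adjusted p = 0.371). The arrays of the groups overlapped for Psmb6 in both strains.

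Of 10 probes of the 19S ATPases, 9 lay above 0 at 4 h over both strains and 8 at 18 h, with medians of 0.17 and 0.29, and none was called. Psmc5, an ATPase of the base ring, had the largest fitted changes over both strains, and they were not called. Its probe A_51_P232355 read 1.56 and 1.15 in C57BL6 mock, 2.18 and 2.46 at 4 h, and 2.31 and 2.33 at 18 h, with no overlap between IL-4 and mock. In Balb/c it read 1.23 and 1.96, then 1.44 and 2.04, then 1.78 and 2.18, and the groups overlapped. The change at 18 h over both strains was 0.68 ± 0.22 (adjusted p = 0.105), with a wide interval of 0.17 to 1.18. The second Psmc5 probe, A_52_P657435, changed by 0.46 ± 0.24 (adjusted p = 0.318).

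In the 19S base, the 5 probes of the non-ATPases Psmd1, Psmd2 and Psmd4 all lay above 0 at both times over both strains (medians 0.23 and 0.27), and none was called. Psmd4, a ubiquitin receptor, had at 4 h a change of 0.44 ± 0.12 (adjusted p = 0.0627) on probe A_51_P207962, which read 3.26 and 3.01 in C57BL6 mock against 3.60 and 3.74, and 3.02 and 3.20 in Balb/c mock against 3.47 and 3.45. Mock and 4 h did not overlap in either strain. Its other probe, A_52_P12869, changed by 0.23 ± 0.20.

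In the lid, 10 of 13 probes lay above 0 at 4 h and 11 of 13 at 18 h (medians 0.17 and 0.18), and 1 was called. Psmd13, a scaffold subunit of the lid, read 0.66 and 0.41 in C57BL6 mock, 1.13 and 1.22 at 4 h, and 1.19 and 1.27 at 18 h. Balb/c gave 0.66 and 0.96 in mock, 0.85 and 0.95 at 4 h, and 1.05 and 1.02 at 18 h. In C57BL6 the IL-4 arrays lay well above the mock arrays, while those of 4 h and 18 h overlapped. In Balb/c the 4 h arrays lay between the mock arrays. Psmd13 rose by 0.46 ± 0.12 at 18 h over both strains (1.38-fold, adjusted p = 0.0434). Its change was 0.70 ± 0.16 in C57BL6 (adjusted p = 0.0555) and 0.23 ± 0.16 in Balb/c (adjusted p = 0.597), and the difference between strains was -0.47 ± 0.23 (adjusted p = 0.928). Its call over both strains was lost without any 1 of 11 of the 12 arrays. Psmd8 was the lid member with the largest negative change, -0.53 ± 0.21 at 18 h in Balb/c (adjusted p = 0.279), against 0.05 ± 0.21 in C57BL6.

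Among 7 activator probes, 1 was called for IL-4, of Psme4. Psme4 encodes PA200, a large activator of the core linked to histone degradation. Its probe A_52_P344897 read 0.82 and 0.86 in C57BL6 mock, 1.31 and 1.61 at 4 h, and 1.05 and 1.03 at 18 h. The Balb/c values were 0.86 and 0.82 in mock, 1.39 and 1.11 at 4 h, and 1.01 and 1.04 at 18 h. In both strains the level was highest at 4 h and lower again at 18 h, with no overlap between the 3 conditions. Psme4 rose by 0.51 ± 0.11 at 4 h over both strains (1.43-fold, adjusted p = 0.0351), and the change from 4 h to 18 h was -0.32 ± 0.11 (adjusted p = 0.197). Probe A_52_P111438 of Psme4 changed by 0.46 ± 0.13 at 4 h (adjusted p = 0.0802) and probe A_51_P166198 by 0.27 ± 0.13 (adjusted p = 0.305). With normexp A_52_P111438 gave -0.01, where the median of all passing probes was -0.12. The call of A_52_P344897 was lost without any 1 of 11 of the 12 arrays.

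Psme1, the PA28 alpha subunit, read 5.59 and 5.21 in C57BL6 mock, 5.50 and 5.61 at 4 h, and 5.34 and 5.24 at 18 h. The Balb/c arrays read 4.81 and 5.04, then 5.21 and 5.22, then 4.88 and 4.94. At 18 h over both strains its change was -0.07 ± 0.12 (adjusted p = 0.817). The probes named Psme2b-ps had the lowest levels at 18 h in each strain. Probe A_51_P361535 read 6.16 and 6.11 in C57BL6 mock and 5.83 and 5.72 at 18 h, and 5.66 and 5.85 in Balb/c mock and 5.46 and 5.54 at 18 h. Mock and 18 h did not overlap in either strain, and the change over both strains was -0.30 ± 0.10 (adjusted p = 0.111). The second probe, A_52_P305289, changed by -0.32 ± 0.10 (adjusted p = 0.106). With normexp both changed sign, to 0.10 and 0.09, where the median of all passing probes was -0.48. Psme3, the nuclear PA28 gamma subunit, had group means of 0.97 to 1.35 and was not called.

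The chaperones Psmd5, Psmd9 and Psmd10, the regulator Psmf1 and the alpha subunit Psma8 had no call in any comparison. Psmc3ip had the widest range of group means in the set, 1.47 and 1.48 on its 2 probes, beside wide gaps between replicates. Probe A_51_P256706 read 0.16 and 0.19 in C57BL6 mock, -0.38 and -0.44 at 4 h, and -0.24 and 0.17 at 18 h. In Balb/c it read -2.52 and 0.37 in mock, -2.34 and -0.24 at 4 h, and -0.77 and 0.51 at 18 h. In each Balb/c condition replicate 1 lay far below replicate 2, and probe A_52_P238044 showed the same gaps (-3.29 and -0.51, -3.19 and -1.02, -1.56 and -0.28). The SE of a change within a strain was 0.95 and 0.94 on the 2 probes, and none was called.

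**Figure D2:**
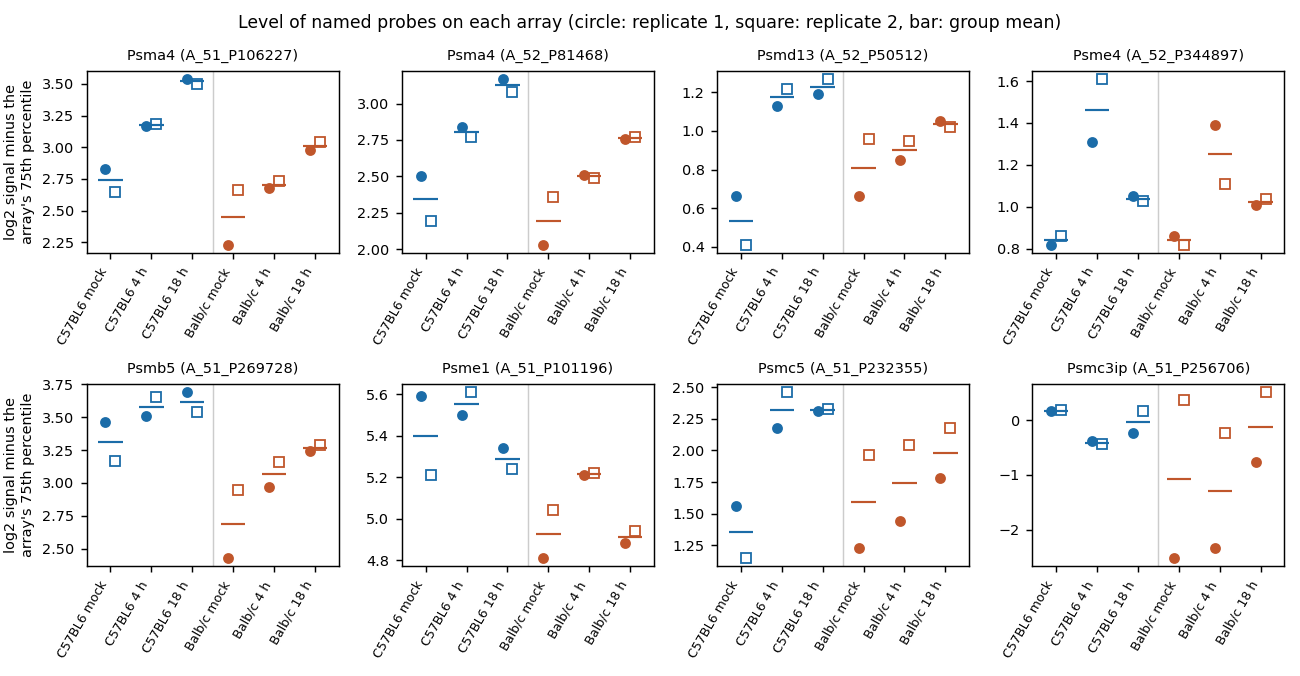
Level of 8 named probes on each array, as log2 signal minus the array's 75th percentile. Circles are replicate 1, open squares replicate 2 and bars the mean of the 2 arrays, blue for C57BL6 and orange for Balb/c; each panel has its own axis. Psma4 steps up from mock to 4 h to 18 h in both strains, Psme4 is highest at 4 h, and Psmc3ip has replicate 1 of Balb/c mock at -2.52 against 0.37 for replicate 2.

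The early effect of IL-4 was asked by setting 4 h against mock. In C57BL6 the member median was 0.14 and 43 of 61 probes lay above 0 (48.4% of all passing probes did). No member was called higher or lower by limma, where 1.72% and 1.49% of all probes were. At an unadjusted p below 0.05 there were 7 higher and 0 lower, 11.5% of members against 16.4% of all probes. In Balb/c the median was 0.09, with 45 above 0, and again 0 and 0 were called (0.862% and 0.402% of all probes). There 1 and 0 had an unadjusted p below 0.05, 1.64% of members against 10.3% of all probes. Over both strains, with 4 arrays against 4, the Psme4 probe alone was called higher and none lower (3.09% and 3.56% of all probes), with a median of 0.11. The Balb/c value hung on the mock array taken: the median was -0.12 without Balb/c mock replicate 1 (15 of 61 above 0) and 0.29 without replicate 2 (55 above 0).

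At 18 h against mock, the late effect, the member median was 0.12 in C57BL6 (41 of 61 above 0) and 0.24 in Balb/c (51 above 0). Called higher in C57BL6 were 2 probes, both of Psma4, and none lower (1.87% and 2.37% of all probes). In Balb/c 0 were called higher and 0 lower by limma (1.32% and 2.33% of all probes). There 3 and 1 had an unadjusted p below 0.05, 6.56% of members against 14.9% of all probes. Over both strains 3 were called higher, the 2 of Psma4 and the 1 of Psmd13, and 0 lower (3.61% and 5.56% of all probes), with a median of 0.17. At an unadjusted p below 0.05, 10 were higher and 2 lower, 19.7% of members against 22% of all probes. Over both strains the 3 of 61 called higher lay near the background share of 3.61%. None was called lower, where 5.56% of all probes were. With so few calls, whether the split by direction differed from that of all probes was not tested. The Balb/c median was 0.03 without Balb/c mock replicate 1 and 0.44 without replicate 2. These comparisons share their mock arrays with those at 4 h. With replicate within strain as a block, more members were called at both times over both strains. So were more of all probes, 23.3% at 4 h and 25.2% at 18 h. Those calls are given with the dependence on processing, since the labels do not tie a replicate number to a litter.

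Between the time points the 18 h arrays were set against the 4 h arrays over both strains. The median was 0.07 and no member was called higher or lower (1.32% and 2.25% of all probes). At an unadjusted p below 0.05, 2 were higher and 4 lower, 9.84% of members against 16.7% of all probes. By role, 8 of 8 beta-ring probes lay above 0 (median 0.12) and 6 of 7 activator probes below 0 (median -0.29). None of these probes passed the test, and the roles were not tested against each other. For 59 of 61 members the 95% interval of this change lay within 2-fold in either direction, as it did for 57 of 61 at 18 h against mock over both strains.

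Balb/c was set against C57BL6 over mock, 4 h and 18 h, with 6 arrays in each strain. The median of the set was -0.23, and 57 of 61 members lay below 0, against 44.3% above 0 and a median of -0.05 among all passing probes. Called lower in Balb/c were 5 members and called higher 0, against 10.5% and 7.64% of all probes. The 5 were Psmb5 (-0.50 ± 0.12, 1.41-fold, adjusted p = 0.0231), Psma4 on A_51_P106227 (-0.42 ± 0.10, adjusted p = 0.0207), Psme1 (-0.40 ± 0.10, adjusted p = 0.0264), Psma1 (-0.37 ± 0.10, adjusted p = 0.0391) and Psme2b-ps on A_51_P361535 (-0.34 ± 0.08, adjusted p = 0.0236). The second probe of Psma4 gave -0.27 ± 0.10 (adjusted p = 0.0914), and the second of Psme2b-ps gave -0.23 and was not called. At an unadjusted p below 0.05 there were 0 higher and 19 lower, 31.1% of members against 32.5% of all probes.

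The strain calls depended on slide, replicate and scaling. The main fit took the 6 arrays of a strain as independent. With replicate within strain as a random block (consensus correlation 0.58), no member was called, against 6.01% of all probes. Psmb5 then gave -0.50 (limma, adjusted p = 0.228). With slide as a block no member was called, the median was -0.11 and 49 of 61 lay below 0, and Psmb5 gave -0.46 (adjusted p = 0.308). Within slide 2, the only slide with both strains, the single 4 h array of Balb/c was lower than that of C57BL6 by a median of 0.16 over the members (48 of 61 below 0), a value without replicates, while the median of all passing probes was 0.00. With the array median in place of the 75th percentile, 0 members were called and 54 of 61 lay below 0. Leaving out 1 array at a time gave 0 to 13 calls. The 13 of 61 came without Balb/c mock replicate 2, where 18.1% of all probes were called. There were 0 without any 1 of 5 others, where 12% to 15.3% of all probes were called. These were Balb/c 18 h replicate 1, both C57BL6 arrays at 18 h, C57BL6 4 h replicate 2 and C57BL6 mock replicate 1. The neutrophil marker sum given above also differed between the strains, as did Pdgfrb among the stromal markers, and their part in the difference was not tested.

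The strain difference of the IL-4 change itself had a member median of -0.05 at 4 h and 0.08 at 18 h. No member was called higher or lower at either time by limma, and neither was any of the 27373 probes (0% higher and 0% lower at 4 h, 0% and 0% at 18 h). At an unadjusted p below 0.05 there were 0 members higher and 1 lower at 4 h, Psmd13 (-0.55 ± 0.23), and 1 higher and 0 lower at 18 h, Psma1. These were 1.64% of members at either time, against 2.56% of all probes at 4 h and 5.34% at 18 h. The 95% interval lay within 2-fold for 49 of 61 members at 4 h and for 38 at 18 h.

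**Figure D3:**
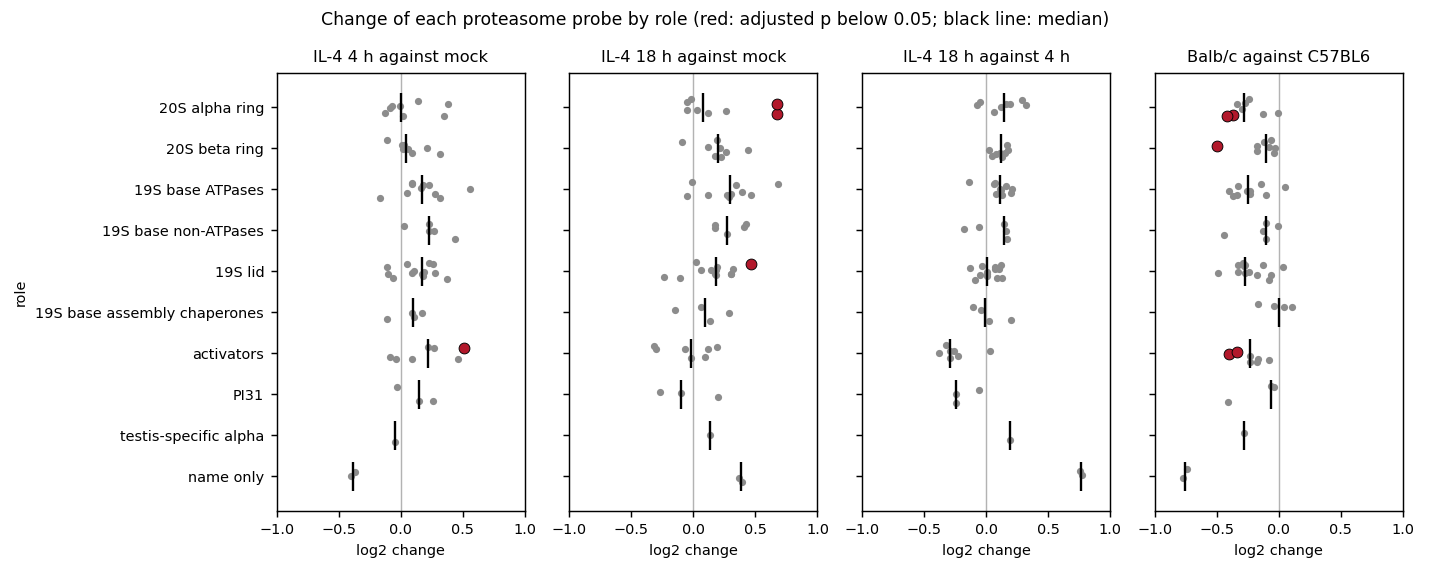
Log2 change of each of the 61 member probes by role in 4 comparisons (the 3 IL-4 panels are means of both strains). Red points have a Benjamini-Hochberg adjusted p below 0.05, and black lines are medians. The called points are 1 activator at 4 h, 3 probes at 18 h, none between the time points and 5 below 0 for Balb/c.

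Groups were also compared by overlap of their arrays. At 4 h, 8 of 61 members had both arrays above both mock arrays in each strain, against 7.69% of all probes, and 0 had both below, against 9.12%. The 8 were both probes of Psma4, Psmb5, Psmd4, Psmd6, 2 of Psme4 and 1 of Psmf1. At 18 h, 10 lay above, against 9.3% of all probes: both probes of Psma4, both of Psmd2, Psmb5, Psmc1, Psmc3, Psmd5, Psmd13 and 1 of Psme4. The 2 that lay below, against 11.6% of all probes, were the probes named Psme2b-ps. Balb/c lay below C57BL6 in all 3 conditions for 11 members, against 10.6% of all probes, and above for 0, against 8.36%.

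Of 16 genes with more than 1 probe, the probes had changes of the same sign in 12 at 4 h over both strains, in 11 at 18 h and in 15 for the strain difference. The median gap between probes of a gene was 0.14, 0.12 and 0.13. The widest gaps were those of Psmd7 at 4 h (0.34) and of Psmf1 at 18 h (0.47) and between strains (0.37).

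Other genes of the pathway were taken from lists. The immunoproteasome subunits Psmb8, Psmb9 and Psmb10, which the rule leaves out, were measured by 4 probes. Their median was 0.32 at 4 h, -0.11 at 18 h and -0.46 between 4 h and 18 h over both strains, and none was called. Psmb9 changed by -0.52 ± 0.16 at 18 h (adjusted p = 0.082). Among 32 probes of 15 partners of the proteasome, such as shuttle factors and deubiquitinases, none was called at 4 h, at 18 h or between them. For the strain difference 3 of the 32 were called higher and 4 lower, near the shares of all probes (7.64% and 10.5%). Among them were 1 of 4 probes of Rad23b (-1.03 ± 0.13, adjusted p = 0.00134) and 2 of 3 probes of Zfand5, which went opposite ways (-0.92 ± 0.10 and 1.42 ± 0.25).

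Of 14 probes of 8 genes that act on the transcription of proteasome genes, Vcp, the ATPase that extracts ubiquitinated proteins, rose by 0.62 ± 0.12 at 18 h on 1 of its 2 probes (adjusted p = 0.016; the other 0.15 ± 0.13). Nfe2l2, a transcription factor of the antioxidant response, fell by 0.87 ± 0.18 and 0.88 ± 0.21 at 4 h on 2 of its 4 probes (adjusted p = 0.0291 and 0.0437). Nfe2l1, the factor that drives the proteasome bounce-back, changed by -0.30 ± 0.16 at 4 h (adjusted p = 0.336). Among 12 probes of 7 peptide-loading genes, the peptide transporter genes Tap1 (-0.76 ± 0.13, adjusted p = 0.00937) and Tap2 (-0.49 ± 0.10, adjusted p = 0.0193) fell at 18 h, and the chaperone gene Calr rose on 1 of its 2 probes (0.68 ± 0.14, adjusted p = 0.0211).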

How the data were processed

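RNA of 12 macrophage samples was measured on single-colour Agilent arrays. The deposited scanner intensities came from Feature Extraction (Agilent, version 9.5.1.1 in the submitters' processing notes), with background already subtracted in the processed signal. The deposited ratio values matched the scaled processed signal divided by the C57BL6 mock mean and served as an alternative. Here, control spots and marked outlier spots were left out, spots of a probe were averaged, and the log2 processed signal minus each array's 75th percentile was used. Of 41174 probes, 27373 passed as well above background on the 2 arrays of some group. limma 3.58.1 (R 4.3.3) fitted 6 group means to all 12 arrays, with 6 residual degrees of freedom, for 10 comparisons. P-values were adjusted by Benjamini-Hochberg over all 27373 probes, and below 0.05 is called. With 2 arrays a group, their number limits the precision. The model was tested on simulated data.

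Members and gene lists were chosen with earlier results of these data known. Named probes are those called in any comparison, the 3 largest rises and 3 largest falls per comparison, other probes of those genes, Psme1, Psme2b-ps, Psmb5, Psmb6 and Psmb7, and up to 4 genes of each other list; others were named after their values were seen. Alternatives were the background correction, scaling, filter, moderation, spot flags, deposited values, 1 probe per gene, arrays in the fit, replicate and slide blocks, and each array left out. Leaving out slide 2 was added after seeing the data. Sequences are from RefSeq (GRCm38.p6), matched by symbol for promoters; for names, 52 member probes matched by accession, 7 by symbol and 2 not. The build of the array's design is not given in the sources used here. One further gene list is not reported here.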

Additional observations from a re-analysis of the deposited data

How the results depend on the processing

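Values are numbers of proteasome probes called. For Balb/c against C57BL6 (5), there were 8 with an intensity trend and robust moderation, 2 with quantile normalization and 1 with no filter on dim probes. There were 0 with median scaling, normexp, the slide block or the replicate block. Leaving out slide 2 leaves 1 array in some groups. None of the 5 was still called there, and their changes ran from -0.51 (Psmb5) to -0.36 (Psme1). For 18 h against mock over both strains (3), there were 0 with normexp and 0 without slide 2. In C57BL6 alone (2), there was 1 with the slide block, and 0 with median scaling, no filter, normexp or only the arrays compared. With 1 probe per gene there was 1, as that setting kept only the brighter of the 2 Psma4 probes. Without slide 2 the 2 Psma4 probes changed by 0.87 and 0.93 and were not called. For 4 h over both strains (1), there were 2 with the trend and 2 with probes above background on all 12 arrays. There were 0 with median scaling, no filter, normexp or only the arrays compared. Without slide 2 the called Psme4 probe changed by 0.65 and was not called. With 1 probe per gene there were 0, but that setting kept the brightest Psme4 probe and so did not test the called one. In C57BL6 alone (0) there was 1 with the trend. Normexp moved the median of all probes by -0.12 at 4 h and -0.48 at 18 h over both strains, and the share of all calls that were higher at 4 h was 80.4% with it. Leaving out 1 array at a time gave 0 to 13 calls between strains (0 without Balb/c 18 h replicate 1, 13 without Balb/c mock replicate 2), 0 to 4 at 18 h over both strains (0 without C57BL6 18 h replicate 1), 0 to 2 at 18 h in C57BL6, and 0 to 1 at 4 h over both strains. The share of all probes called moved too. Between strains (18.2%) it was 19% with the trend, 17.8% with quantile normalization, 14.7% with median scaling, 10.5% with no filter, 10.1% without slide 2, 6.31% with the slide block and 2.3% with normexp. At 18 h over both strains (9.17%) it was 2.94% with normexp and 2.6% without slide 2. In C57BL6 at 18 h (4.24%) it was 5.2% with the slide block, 4.45% with 1 probe per gene, 2.95% with median scaling, 1.82% with only the arrays compared, 1.55% with no filter, 0.552% with normexp and 0.413% without slide 2. At 4 h over both strains (6.65%) it was 9.19% with probes above background on all 12 arrays, 7.75% with the trend, 6.65% with 1 probe per gene, 4.98% with median scaling, 3.3% with only the arrays compared, 2.77% with no filter, 0.504% with normexp and 0.45% without slide 2. For C57BL6 at 4 h (3.21%) it was 4.05% with the trend. Between strains it was 13.4% if Balb/c 18 h replicate 1 was left out, and 18.1% if Balb/c mock replicate 2 was. At 18 h over both strains it was 5.17% if C57BL6 18 h replicate 1 was left out. Where not given above, the cause was not tested.

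The labels do not tie a replicate number to a litter, so the numbers were not taken as pairs; deviations of same-numbered arrays correlated at 0.20 to 0.64 over probes. With the replicate block within strain, calls numbered 7 at 4 h (7 higher and 0 lower, with 16.5% of all probes called) and 6 at 18 h (6 and 0, 17.3%) in C57BL6, 3 at 18 h in Balb/c (2 and 1, 14.2%), 8 at 4 h (8 and 0, 23.3%) and 14 at 18 h (12 and 2, 25.2%) over both strains, 1 between 18 h and 4 h (0 and 1, 16.3%), and 0 between strains (6.01%). The 14 included, besides both probes of Psma4 and Psmd13, higher levels of Psmb5 (limma, adjusted p = 0.038), Psmc3 and both probes of Psmc4 and of Psmc5. Higher levels of Psmd1, 1 probe of Psmd2 and Psmd5, and lower levels of both Psme2b-ps probes, made up the rest. Apart from Psma4 and Psmd13, none of these was called in the main fit.

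Of 1580 recomputed changes of named probes, 39 changed sign. With normexp these were Psma1 at 18 h in C57BL6 (0.11), Psme2b-ps at 18 h in C57BL6 (0.11 and 0.05) and over both strains (0.10 and 0.09), Psme4 A_52_P111438 at 4 h (-0.01), and Psmc3ip at 18 h in Balb/c (-0.05 and -0.15) and for the strain difference at 4 h (-0.03). With the slide block they were Psmc3ip between strains (0.38 and 0.37) and for the strain difference at 4 h (-0.48 and -0.52), and Psmd9 between strains (-0.36 and -0.22). Without slide 2 they were Psmc2 A_52_P100222 between strains (-0.11), Psmd7 A_52_P171993 for the strain difference at 18 h (0.13), and Psmc3ip for that at 4 h (-0.63 and -0.73). Leaving out 1 array at a time, Psmc2 between strains ran from -0.07 to 0.18 and Psmd9 A_51_P251587 from -0.03 to 0.12. Psmc3ip A_51_P256706 ran from -0.50 to 2.39 at 18 h in Balb/c, from -1.66 to 1.23 at 4 h in Balb/c, from -1.12 to 0.32 at 4 h over both strains, and for the strain difference from -1.07 to 1.81 at 4 h and from -0.29 to 2.60 at 18 h. Psmc3ip A_52_P238044 ran from -0.41 to 2.37 at 18 h in Balb/c, from -1.07 to 0.32 at 4 h over both strains, and for the strain difference from -1.05 to 1.73 at 4 h and from -0.19 to 2.58 at 18 h.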
